A study of Mus musculus with 9 samples.

Results

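The regions described here carry a Stat5a peak at 13 h of Th2 differentiation in mouse CD4+ T cells and no other deposited Stat5 peak. They were chosen by the authors' peak calls. The 6 nuclear peak lists of the series were joined wherever peaks overlapped by at least 1 bp, which gave 43766 merged regions, and a region was kept if it held a peak of the Stat5a list of 13 h and none of the other 5 lists. This left 6339 regions covering 1.38 Mb of the mm8 build. The Stat5a reads of 13 h and the lack of a peak in the other lists therefore selected the regions, and every difference between Stat5a at 13 h and another library is a description of that choice. No replicate libraries exist, so no test was made and no p-value is given.

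Stat5a and Stat5b are closely related transcription factors that are phosphorylated by Janus kinases after cytokines such as IL-2 bind their receptors. The phosphorylated proteins pair, enter the nucleus and bind short palindromic elements in promoters and enhancers. In CD4+ T cells, IL-2 signalling through Stat5 takes part in priming naive cells for the Th2 fate, in which they make IL-4 and related cytokines. Because both proteins recognise nearly the same DNA element, a region seen with one antibody alone can be compared with the read level that the other antibody left there.

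The series holds chromatin immunoprecipitation libraries (ChIP-seq, in which DNA bound by a protein is pulled down with an antibody and sequenced) for Stat5a, for Stat5b and for control IgG. CD4+ T cells differentiating towards Th2 were sampled 8 h and 13 h into the culture and once more when 2 rounds were complete, which makes 9 libraries with 1 per antibody and stage. The labels give the mouse as the species and refer to a publication for culture, treatment and extraction, so strain, age, cytokines and pooling are not stated here. Depth ran from 3130228 reads (Stat5a at 8 h) to 9036070 reads (Stat5b at 13 h), with 8311042 reads for Stat5a and 7525521 for IgG at 13 h. Between 61.0% and 74.1% of a library's reads were distinct, meaning that each start position and strand was counted once. Reads were assigned to regions by their 5′ ends. The 95% intervals below cover counting error only, since no molecular identifiers tell repeated copies of a fragment from separate molecules.

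A peak found in no other list was much more frequent in the Stat5a list of 13 h than in the other list of that stage. Of 13556 merged regions with a Stat5a peak of 13 h, 46.8% had no peak in another list. For the Stat5b list of 13 h the share was 17.3%, and for the Stat5a lists of 8 h and 2 rounds it was 16.1% and 12.6%. The Stat5b list of 2 rounds, the longest of the 6, reached 52.6%. The other 7217 regions with a Stat5a peak of 13 h serve as the main comparison below, beside 2103 regions with a peak of the Stat5b list of 13 h alone.

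The Stat5a-alone regions were narrow. Their median width was 215 bp (quartiles 187 and 241 bp, range 89 to 2126 bp), whereas the other Stat5a regions of 13 h, which merge peaks of several lists, had a median of 752 bp. The Stat5b-alone regions of 13 h, also mostly single peaks, had a median of 289 bp. Just 17 of the 6339 regions joined more than 1 Stat5a peak. The ends of the regions often lay on reads: a Stat5a 5′ end lay on the first base of 4069 regions (64.2%). The share was 5.97% in the other Stat5a regions, but there the ends can be set by peaks of other lists, so the shares are not alike. At the border of the choice, 126 regions lay within 100 bp of a region of another list and held a median of 11 Stat5a and 3 Stat5b reads at 13 h. Just outside it, 23 Stat5a peaks overlapped a peak of another list by at most 20 bp and held medians of 10 and 3 reads.

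Few distinct starts lay behind most of these peaks, with the 2 read lengths aligned as described below. A region held a median of 10 Stat5a reads of 13 h (quartiles 8 and 12, range 5 to 918), but these came from a median of 5 distinct starts. There were 433 regions with 3 starts, 2055 with 4, 1963 with 5 and 983 with 6, and 96.0% of the regions had 8 or fewer. In the other Stat5a regions the medians were 24 reads and 14 starts. The distinct share of Stat5a reads was 46.8% (46.5% to 47.2%, Wilson) in the Stat5a-alone regions, beside 62.8% of the whole library. With 25 bp reads alone the 2 shares lay closer, at 70.3% in the Stat5a-alone regions and 73.4% in the library, and the other Stat5a regions stood at 62.7%. The most frequent start alone held a median of 36.4% of a region's reads, compared with 15.8% in the other Stat5a regions. Reads nevertheless came from both strands in nearly every region, since 258 (4.07%) had distinct starts on 1 strand only.

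**Figure D1:**
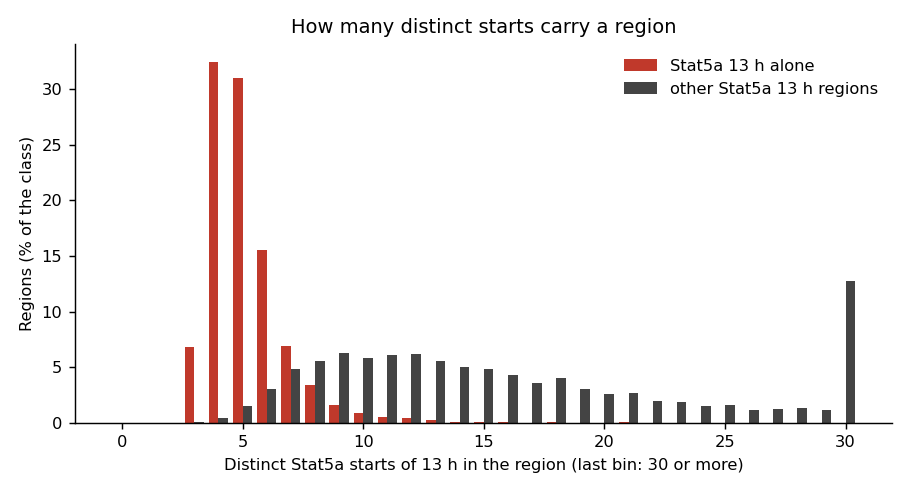
Number of distinct Stat5a starts of 13 h per region (x axis, with 30 or more in the last bin) against the percentage of the class (y axis) for the Stat5a-alone regions (red) and the other Stat5a regions of 13 h (dark grey). The Stat5a-alone regions pile up at 4 and 5 starts, while the other regions spread broadly around their median of 14.

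The Stat5a library of 13 h mixed reads of 25 bp with reads of 24 bp, and its 24 bp reads were treated here as beginning 1 bp further into the fragment than 25 bp reads of the same position. With the starts taken as deposited, the 2 lengths look like different starts. Counted in that way, the 14300 peaks of the Stat5a list had a sharp lower limit: none held fewer than 5 starts, 151 held 5 and 3897 held 6. Among the Stat5a-alone regions 3299 (52.0%) held exactly 6 deposited starts and 6273 (99.0%) held at least 6. Once the 24 bp starts were moved back by 1 bp, 1888 regions (29.8%) still held at least 6. The same step left 98.1% of the other Stat5a regions at 6 or more. In regions with a Stat5a peak of 2 rounds alone, whose library also mixes both lengths, it left 97.5% there. Aligning the lengths lowered the number of starts in 5871 of the 6339 regions (92.6%), in total from 44205 to 32823. It lowered the number in 79.5% of the other Stat5a regions, in total from 148590 to 135625.

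The overlap of the 2 read lengths can also be given start by start. In the Stat5a-alone regions 11513 of 18180 starts of 24 bp reads, 63.3% (62.6% to 64.03%, Wilson), were also starts of 25 bp reads. The share was 39.8% in the other Stat5a regions, 50.8% in regions with a Stat5a peak of 8 h alone, 28.7% in the Stat5b-alone regions of 13 h and 27.3% in the whole library. In the class with a Stat5a peak of 8 h alone, the shared starts lay in 142 of 834 regions (17.0%). At least 1 shared start of the Stat5a library occurred in 5906 of the Stat5a-alone regions (93.2%). It occurred in 81.4% of the other Stat5a regions, 89.8% of regions in all 6 lists and 48.7% of all merged regions. The IgG library of 13 h holds 49.7% of 24 bp reads. In the Stat5a-alone regions 1.60% of its 24 bp starts were shared, beside 0.532% in the whole IgG library. In regions with a Stat5a peak of 8 h alone that IgG share was 32.9%, but these shared starts lay in 8 of the 834 regions (0.959%). Reads of 24 bp made up 47.0% of the Stat5a reads in the Stat5a-alone regions and 38.0% of the library. In the Stat5a and IgG libraries of 2 rounds, which also mix both lengths, 0.392% and 0.148% of all 24 bp starts were shared. Whether shared starts are separate fragments or the same fragments read at both lengths is not given in the sources used here and was not tested. In the second case every Stat5a read count, RPM value and fold of 13 h below counts some fragments more than once. With 25 bp reads alone, pooled Stat5a reads of 13 h stood at 11.95 times IgG and 5.764 times Stat5a at 8 h, beside 10.3 and 6.74 with every read. Whether the mixture of lengths took part in the peak calls was not tested, since the caller's handling of reads is not given in the sources used here.

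**Figure D2:**
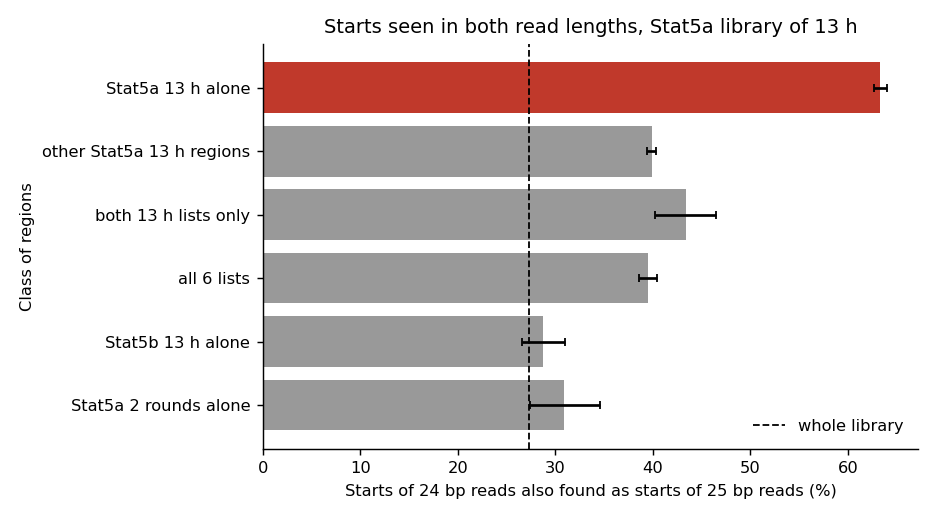
Percentage of 24 bp starts of the Stat5a library of 13 h that were also 25 bp starts (x axis, bars from 0, error bars are 95% Wilson intervals) for 6 classes of regions (y axis), with the whole library as a dashed line. The Stat5a-alone regions stand at 63.3%, above every other class drawn, and the Stat5b-alone regions lie near the library's 27.3%.

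Around the region centres, Stat5a starts of 13 h had the order usual in ChIP-seq, with plus strand starts upstream of minus strand starts. The median minus strand start lay 107 bp downstream of the median plus strand start, against 97 bp in the other Stat5a regions. The signal ended abruptly: plus strand starts fell from 3.15 per 1000000 and kb at 100 to 50 bp upstream of the centre to 0.31 at 200 to 150 bp upstream. Since peak ends sit on reads, part of this shape is set by the choice. The Stat5b library of 13 h, whose reads did not place the ends, showed a low and broader rise over the same centres, to 0.51 per 1000000 and kb on the minus strand from 0.31 at 200 to 150 bp upstream. Its strands were 23.5 bp apart inside the regions, and those of IgG were 25 bp apart. In the other Stat5a regions, which are wider (median 752 bp against 215 bp), the Stat5b strands were 108 bp apart and the IgG strands 47 bp. In the Stat5b-alone regions of 13 h (median 289 bp), the strands were 47 bp apart for Stat5a, 104 bp for Stat5b and 20 bp for IgG. How far region width sets these distances was not tested.

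**Figure D3:**
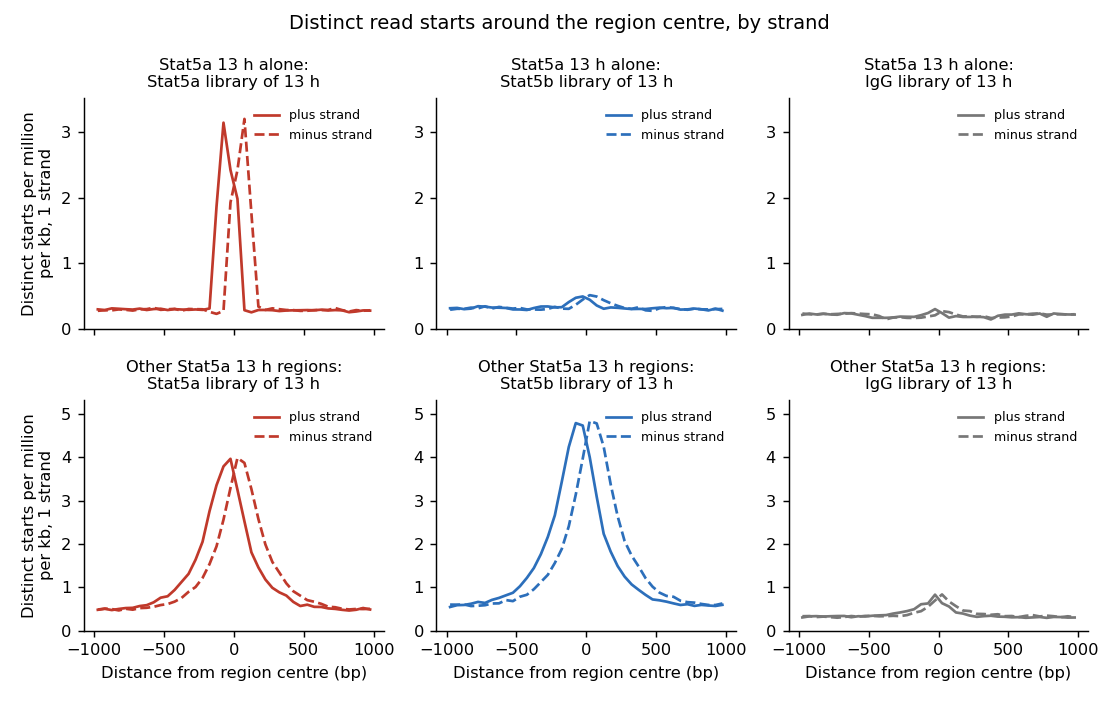
Distinct starts per 1000000 and kb on the plus (solid) and minus (dashed) strand (y axis) by distance from the region centre in bp (x axis), for the 3 libraries of 13 h. In the Stat5a-alone regions (top row) a narrow Stat5a signal stands beside a low Stat5b rise to 0.51 and a lower IgG rise to 0.30, whereas in the other Stat5a regions (bottom row, its own scale) Stat5a and Stat5b both form wide paired peaks.

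Read levels over the regions were then compared with flanks of 0.5 to 2 kb on both sides, other merged regions left out, in RPM (reads per 1000000 of the library) per kb. At 8 h the level was 0.908 RPM per kb with Stat5a, 0.777 with Stat5b and 0.659 with IgG. At 13 h it was 6.12 with Stat5a, 1.03 with Stat5b and 0.596 with IgG. After 2 rounds it was 0.959 with Stat5a, 1.21 with Stat5b and 0.884 with IgG. All 9 libraries, the 3 IgG controls included, were therefore above their flanks, which lay between 0.430 and 0.523 RPM per kb.

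Stat5a at 13 h stood 12.5-fold (12.3 to 12.6) over its flanks, as the choice of regions requires. The Stat5b library of the same stage stood 2.06-fold (2.02 to 2.10) over its own, and IgG 1.38-fold (1.35 to 1.42). Stat5b reads were thus enriched at 13 h without a listed peak. In the other Stat5a regions Stat5b stood 8.56-fold over the flanks. A lower value in the Stat5a-alone regions is built into the choice, since regions with a Stat5b peak were left out. In the reverse case, the Stat5b-alone regions of 13 h, Stat5a stood 3.01-fold and IgG 1.45-fold over the flanks. The next highest level in the Stat5a-alone regions was that of Stat5b after 2 rounds, 2.32-fold (2.27 to 2.36) over its flanks. IgG of 2 rounds was at 1.83-fold. Stat5a was 1.98-fold over its flanks both at 8 h and after 2 rounds, beside IgG values of 1.53-fold at 8 h and 1.83-fold after 2 rounds.

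Heaped regions, in which 1 start held over 50% of at least 20 reads in some library, numbered 5 among the 6339. They weighed on the controls and on Stat5a after 2 rounds. Without them IgG at 13 h was at 1.21-fold over the flanks and IgG of 2 rounds at 1.68-fold, while Stat5b at 13 h was at 2.04-fold. Stat5a was then at 1.97-fold at 8 h and 1.87-fold after 2 rounds. With each start counted once, the values at 13 h were 9.55-fold for Stat5a, 1.94-fold for Stat5b and 1.14-fold for IgG.

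**Figure D4:**
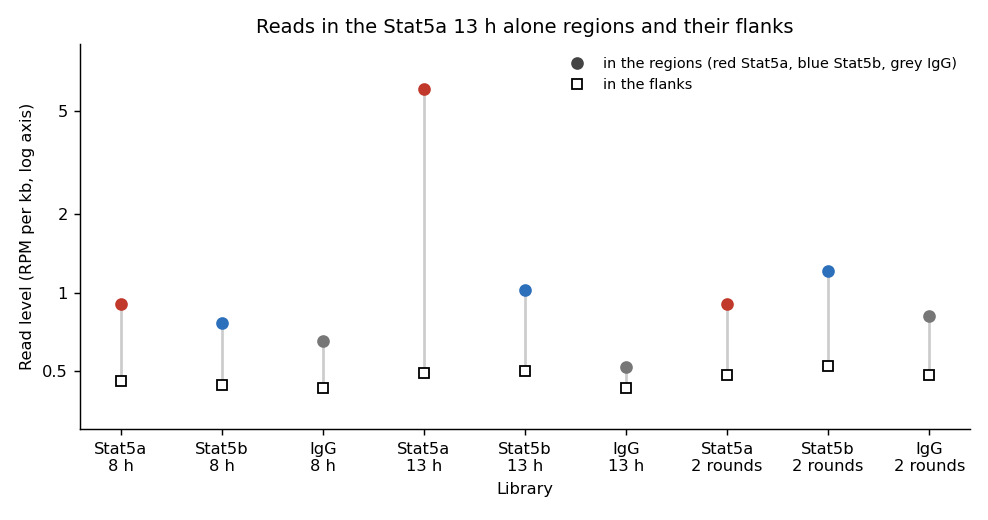
Reads in RPM per kb (y axis, log scale) in the Stat5a-alone regions without the 5 heaped ones (filled points, red for Stat5a, blue for Stat5b, grey for IgG) and in their flanks (open squares) for the 9 libraries (x axis); 95% counting intervals are smaller than the points. Stat5a at 13 h stands far above the other 8 libraries, each of which lies above its own flanks.

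Single regions held too few reads in the other libraries to be read one by one. The Stat5b library of 13 h had no read in 44.6% of the regions, IgG of 13 h none in 61.7%, Stat5a of 8 h none in 73.5% and Stat5a of 2 rounds none in 57.6%. A count of 0 in the Stat5a library of 8 h, the shallowest, allows up to 3 reads, so most of these zeros do not separate a low level from none. In 252 regions (3.98%) all 8 other libraries were empty, and in 1052 (16.6%) at least 7 were. Over all 43766 merged regions these shares were 0.576% and 2.60%. None of the other 7217 Stat5a regions was empty in all 8, which follows from the choice, since each holds a peak of another list.

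Against the IgG library of 13 h, the Stat5a library held 10.3 times (10.01 to 10.5) the RPM over the pooled regions. Region by region, the 95% interval of the Stat5a over IgG ratio lay wholly above 2 in 2391 regions (37.7%), beside 14.2% of all 43766 merged regions. With each start counted once, 28 regions (0.442%) remained above 2, beside 3.75% of all merged regions. In the other Stat5a regions the shares above 2 were 43.2% with every read and 21.7% with each start counted once. Both counts use the library that chose the regions and show only how many reads or distinct starts lie behind a peak. The interval lay above 1 in 5287 regions (83.4%) with every read and in 1087 (17.1%) with each start counted once, beside 37.6% and 18.1% of all merged regions. For the other Stat5a regions these shares were 86.4% and 72.1%.

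Stat5b at 13 h was compared with IgG of the same stage in the same way. The pooled ratio was 1.73 (1.68 to 1.79), or 1.94 (1.86 to 2.02) with each start counted once. Its interval lay above 2 in 43 regions (0.678%), beside 17.5% of all merged regions. Each start counted once left 1 region (0.0158%), beside 9.06%. A low share is built into the choice, since regions with a Stat5b peak of 13 h were left out. In the regions more than 5 kb from any region found in at least 2 lists, heaped ones kept, the pooled Stat5b over IgG ratio was 1.58 (1.53 to 1.64). With heaped regions left out it was 2.01 at 5 to 50 kb and 1.66 beyond. Over all Stat5a-alone regions without the heaped ones it was 1.97.

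At the other stages the libraries differed less from their controls. At 8 h, pooled Stat5a reads stood at 1.38 times (1.32 to 1.44) the IgG level and pooled Stat5b reads at 1.18 times (1.14 to 1.22). After 2 rounds, Stat5a stood at 1.09 times (1.05 to 1.12) and Stat5b at 1.37 times (1.33 to 1.41) the IgG level. Of the 4 pooled ratios, that of Stat5a after 2 rounds was nearest to 1. The ratios differed with distance from a region found in at least 2 lists, heaped regions left out. Within 5 kb they were 1.84 and 1.35 at 8 h and 1.35 and 1.97 after 2 rounds, Stat5a first. In the 2835 regions beyond 50 kb, Stat5a was at 1.02 (0.946 to 1.09) and Stat5b at 0.996 (0.940 to 1.05) at 8 h. After 2 rounds they were there at 0.994 (0.939 to 1.05) and 1.17 (1.11 to 1.23).

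Across stages, the Stat5a level was highest at 13 h, as the choice demands. The pooled Stat5a level in RPM at 13 h was 6.74 times (6.53 to 6.96) those at 8 h, and after 2 rounds it was 0.157 times (0.153 to 0.160) those at 13 h. The interval of the ratio of 13 h to 8 h lay wholly above 1 in 1500 regions (23.7%), beside 6.6% of all merged regions, and with each start counted once in 11 (0.174%), beside 0.379%. It lay wholly above 2 in 36 regions (0.568%), beside 0.29%, and with each start counted once in 0 regions, beside 0.00685%. The late step lay wholly below 0.5 in 1582 regions (24.96%), beside 4.19% of all merged regions, and with each start counted once in 3 (0.0473%), beside 0.0594%. The shallow Stat5a library of 8 h limits the counts for the early step. With each start counted once, the few starts per region limit both steps. At chr1:137625876-137626400, 13 starts against 0 at 8 h gave an interval that began at 1.20. Since 99.7% of the regions held 13 or fewer starts, these were out of reach of a call above 2. The counts with each start once therefore do not show a lack of change.

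Stat5b differed less between stages over the same regions. Its pooled level at 13 h was 1.33 times (1.29 to 1.37) that at 8 h, and after 2 rounds it was 1.17 times (1.14 to 1.20) that at 13 h. IgG moved by 0.904 times (0.872 to 0.938) and 1.48 times (1.43 to 1.54) over the same steps. The late Stat5b step was thus smaller than the IgG step, and without a second library neither can be set against the spread between cultures.

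The regions were not alike in what the other libraries showed. They were sorted by the number of distinct Stat5a starts of 13 h, a value that the choice used, and the other libraries were read in each group, heaped regions left out. In the 433 regions with 3 starts, Stat5b at 13 h was 1.43-fold (1.29 to 1.58) over its flanks and IgG 0.83-fold (0.716 to 0.957). In the 983 regions with 6 starts the values were 2.18-fold (2.09 to 2.28) and 1.20-fold (1.12 to 1.29). In the 149 regions with 10 to 30 starts they were 3.63-fold (3.40 to 3.87) and 2.20-fold (2.01 to 2.42). Both libraries were thus higher where Stat5a had more starts.

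Stat5a at 8 h and after 2 rounds showed the same order. Stat5a at 8 h was 0.911-fold (0.726 to 1.13) over its flanks in regions with 3 starts and 3.60-fold in those with 10 to 30. After 2 rounds the values were 0.978-fold (0.847 to 1.13) and 3.36-fold. The median width rose alongside, from 184 to 339 bp. In the 3-start regions neither Stat5a library of another stage differed from its flanks beyond counting error.

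Relative to IgG the order was weaker. The Stat5b over IgG ratio at 13 h was 1.80 in regions with 3 starts, 1.81 with 4 and 1.81 with 5, then 2.20 with 6, 2.24 with 7, 2.38 with 8 to 9 and 1.94 with 10 to 30. The Stat5a over IgG ratio at 8 h went from 0.997 with 3 starts to 1.98 with 8 to 9 and 1.74 with 10 to 30. After 2 rounds the Stat5a over IgG ratio was 0.831 (0.684 to 1.01) with 3 starts and 0.904 (0.839 to 0.974) with 4. It was 1.06 (0.994 to 1.14) with 5 starts, 1.35 with 8 to 9 and 1.29 with 10 to 30. IgG reads were themselves higher where Stat5a had more starts.

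**Figure D5:**
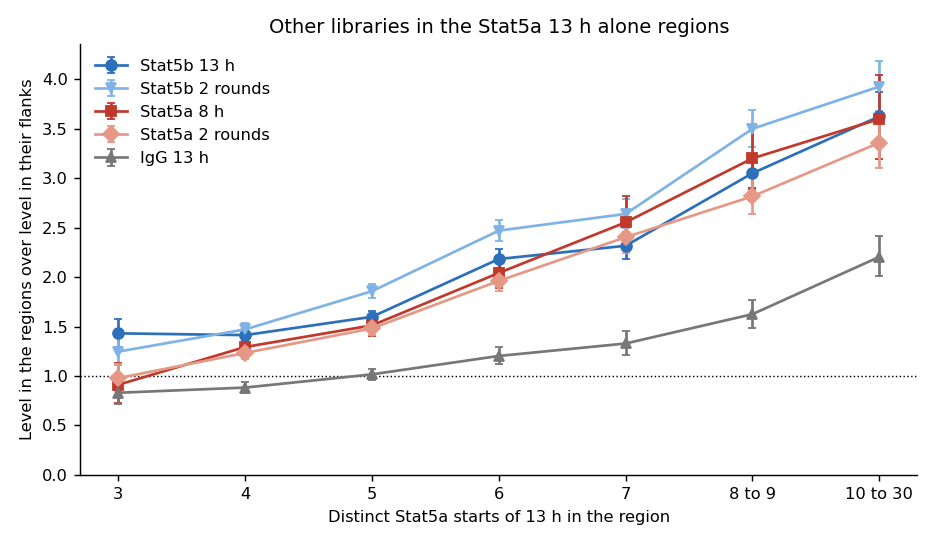
Level over the flanks (y axis, 1 as a dotted line, error bars are 95% intervals of counting error) in 5 libraries other than Stat5a at 13 h, for regions grouped by the number of distinct Stat5a starts of 13 h (x axis). Stat5b at 13 h goes from 1.43 to 3.63 and IgG at 13 h from 0.83 to 2.20, with both other Stat5a stages between 0.911 and 3.60.

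The regions lay further from regions found in at least 2 lists than the other single-list classes named here. The median distance to the nearest region found in at least 2 lists was 38.4 kb, and 991 regions (15.6%) lay within 5 kb of one. For the Stat5b-alone regions of 13 h the median was 13.4 kb with 32.1% within 5 kb, and for regions with a Stat5a peak of 8 h alone it was 11.4 kb with 34.9%. Regions with a Stat5a peak of 2 rounds alone had a median of 21.0 kb with 24.5%. To the nearest merged region of any other class the Stat5a-alone regions had a median of 16.2 kb, with 27.7% within 5 kb. Distances under even spacing over the genome were not computed. Few of the Stat5a-alone regions neighboured each other, 7.05% lying within 5 kb of another. The Stat5b level of 13 h was lower further away, heaped regions left out: 1.48 RPM per kb within 5 kb of a region in at least 2 lists, 1.16 at 5 to 50 kb and 0.732 beyond. The Stat5b over IgG ratio was 2.53 (2.35 to 2.72), 2.01 (1.91 to 2.11) and 1.66 (1.57 to 1.75) in that order. The Stat5b flanks were lower further away too, at 0.741, 0.539 and 0.397 RPM per kb, so the level over the flanks was 2.00-fold (1.92 to 2.08), 2.15-fold (2.10 to 2.22) and 1.84-fold (1.78 to 1.90).

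By chromosome the regions were spread widely, with 516 on chromosome 2, 443 on chromosome 1 and 425 on chromosome 11. Chromosome X held 173 (2.73%), beside 1.48% of the other Stat5a regions and 4.78% of the Stat5a reads of 13 h. All positions are mm8 coordinates. No gene annotation of that build was used, so genes, exons and introns at the regions are not named and no sequence is printed.

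The region with the most reads was a heap. At chr3:59003499-59003732 the Stat5a library of 13 h held 918 reads on 5 starts, 842 of them on 1 start, and IgG of the same stage held 771. Stat5b of 13 h held 51 reads there. After 2 rounds there were 469 Stat5a, 10 Stat5b and 512 IgG reads, and at 8 h there were 10, 32 and 7. Stat5a and IgG were high together at 13 h and after 2 rounds, and their ratio at 13 h was 1.08 (0.979 to 1.19).

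The widest region was likewise present in every library. At chr11:3052322-3054447, 2126 bp wide, Stat5a held 278 reads on 150 starts at 13 h, Stat5b 323 and IgG 205. At 8 h they were 93, 232 and 155, and after 2 rounds 156, 218 and 149. The Stat5a over IgG ratio at 13 h was 1.23 (1.02 to 1.48), and 1.12 (0.883 to 1.43) with each start counted once. The narrow region chr1:33935499-33935646 held 41 IgG, 39 Stat5a and 38 Stat5b reads at 13 h, a Stat5a over IgG ratio of 0.861 (0.541 to 1.37). These regions are high in the control as well as in both antibodies.

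Other regions were nearly private to the Stat5a library of 13 h. At chr1:137625876-137626400 it held 29 reads on 13 starts, while the other 8 libraries held between 0 and 2 reads each. IgG of 13 h and Stat5a of 8 h were both at 0, and the 95% interval of the Stat5a ratio began at 6.68 against IgG and at 2.78 against 8 h. At chr1:13297003-13297337 Stat5a held 28 reads on 12 starts and IgG of 13 h 0, and the interval of the ratio began at 6.43, or at 2.75 with each start counted once. Stat5b held 9, 6 and 10 reads there at the 3 stages in that order, so this region was not empty for Stat5b. At chr3:9103872-9104096 there were 26 Stat5a reads on 5 starts and none in any of the other 8 libraries. The first and the last of these differ in the number of distinct starts behind a similar read count.

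Some regions also held Stat5b reads. At chr7:112004062-112004426 Stat5a held 25 reads on 12 starts and Stat5b 26 reads on 9 starts at 13 h, with 4 IgG reads. Stat5a was at 5.66 times (1.95 to 22.4) and Stat5b at 5.41 times (1.88 to 21.3) the IgG level, and Stat5a of 8 h was at 0. After 2 rounds the same region held 1 Stat5a, 4 Stat5b and 3 IgG reads, so both antibodies were high at 13 h and low afterwards. At chr7:125370936-125371299 there were 19 Stat5a, 27 Stat5b and 6 IgG reads at 13 h, and after 2 rounds 7, 23 and 14. This region lay 0.998 kb from a region found in at least 2 lists. At chr11:61463205-61463749 Stat5a held 27 reads on 18 starts, Stat5b 16 and IgG 5, a Stat5a over IgG ratio of 4.89 (1.86 to 16.3). These regions show that the lack of a Stat5b peak in the list did not always mean a lack of Stat5b reads.

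Reads of the other stages were highest in a further few. At chr10:21988804-21989145 the Stat5a library held 16 reads at 8 h, 32 at 13 h and 8 after 2 rounds, and the ratio of 13 h to 8 h was 0.753 (0.401 to 1.47) once depth was taken into account. The level at 13 h was thus no higher than at 8 h beyond counting error, although the Stat5a list of 8 h has no peak there. At chr2:83860061-83860514 Stat5a held 4, 20 and 23 reads at the 3 stages in that order, Stat5b 3, 11 and 17, and IgG 4, 3 and 2. Stat5a there stayed high after 2 rounds without a listed peak. At chr4:33572445-33572785 Stat5b held 9, 2 and 24 reads at the 3 stages and Stat5a 2, 13 and 14, with at most 2 IgG reads at any stage. Stat5b was there lowest at the stage at which Stat5a was called.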

How the data were processed

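For each of the 9 ChIP-seq libraries the authors deposited a list of mapped reads, with start and end in bp of mm8, a mismatch class and a strand, per the file contents. For each Stat5a and Stat5b library they also deposited a peak list that gives only start and end in bp, with no score. These coordinates are neither normalized nor counts (other units). Which aligner and peak caller were used, with what threshold and with what use of IgG, is not given in the sources used here. Peaks were joined at 1 bp overlap without the mitochondrial genome. Reads were counted by their 5′ end as deposited and scaled to RPM (reads per 1000000). For distinct starts, 24 bp reads were moved back by 1 bp to match 25 bp reads. Ratios have exact conditional (Clopper-Pearson) 95% intervals and shares Wilson intervals. A region was called when its interval lay wholly above 2 or below 0.5, and intervals above 1 were counted besides. For a library at 0 only the lower limit of the ratio is given.

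Named regions come from the top 10 by Stat5a minus IgG (reads and distinct starts), by Stat5b, IgG or Stat5a reads of each stage listed, and the 5 widest. The text's examples, the flanks, the shares within 25 bp reads, the counts above 1, the ratios by distance and the deposited-start counts were chosen after values were seen. The regions and lists were chosen with earlier results of these data known. With 1 library per antibody and stage, no spread between cultures can be given. Alternatives were each start counted once, 25 bp reads alone, scaling to reads outside regions, reads moved 75 bp downstream, heaped regions left out, and other joining rules. Coordinates are 1-based. The software was scipy 1.17.1, numpy 2.4.6 and pandas 2.3.3 under Python 3.11.15, with figures drawn in matplotlib 3.10.9. The motif and nearest-gene steps of the plan were not run, since no mm8 genome or annotation was used here.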

Additional observations from a re-analysis of the deposited data

Results flagged for a closer look

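From 13 h to 2 rounds the antibodies moved in opposite directions over the Stat5a-alone regions: Stat5a RPM went to 0.1567 times and Stat5b RPM to 1.171 times their level. IgG stood at 1.48 times over the same step, and Stat5b over IgG went from 1.73 at 13 h to 1.37 after 2 rounds, so relative to IgG both antibodies were lower after 2 rounds. The difference was not tested, and the Stat5a direction is fixed by the choice of regions.

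The mitochondrial genome was left out of the joined regions. Of its 5 joined regions, 2 held a Stat5a peak of 13 h and 0 held that peak alone. Over those 2 the Stat5a library of 13 h held 1473 reads (177 RPM) and IgG 930 (124 RPM), a ratio of 1.434 (1.32 to 1.56), above the level in the control. Outlying samples could not be looked for, with 1 library per antibody and stage.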

How the results depend on the processing

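No paired analysis was possible because each antibody and stage has 1 library. Of 74 values under alternatives, 35 stayed within their counting interval (or within 1.5 times a count) and 39 moved. No pooled ratio changed direction under these alternatives, which do not include the groups by starts or by distance above. With 25 bp reads alone, however, the interval of Stat5a over IgG after 2 rounds (0.9926 to 1.113) included 1. The limits are depth, which leaves most regions with 0 to 3 reads in the libraries that did not choose them, and repeated starts. With each start counted once, the Stat5a over IgG ratio at 13 h was 9.318, Stat5b over IgG 1.938 at 13 h and 1.492 after 2 rounds, Stat5a 5.233 from 8 to 13 h and 0.1866 from 13 h to 2 rounds, and Stat5b over Stat5a at 13 h 0.2079, and the called regions numbered 28 (Stat5a over IgG), 1 (Stat5b over IgG), 0 (13 h over 8 h) and 3 (2 rounds under 13 h). With 25 bp reads alone, the values in the same order were 11.95, 2.358, 1.295, 5.764, 0.1875 and 0.1973, with Stat5a over IgG after 2 rounds at 1.051, and the called regions were 169 (Stat5a over IgG), 4 (Stat5b over IgG) and 33 (2 rounds under 13 h). Scaled to reads outside regions, Stat5a over IgG was 10.73 at 13 h and 1.141 after 2 rounds, Stat5b over IgG 1.839 and 1.63, and Stat5a from 13 h to 2 rounds 0.1605. With reads moved 75 bp downstream, Stat5a over IgG was 1.445 at 8 h and 1.127 after 2 rounds, Stat5b over IgG after 2 rounds 1.415, and Stat5a 6.385 from 8 to 13 h and 0.1647 from 13 h to 2 rounds. Without heaped regions, Stat5a over IgG at 13 h was 11.62, Stat5b over IgG 1.975 at 13 h and 1.486 after 2 rounds, and Stat5a from 13 h to 2 rounds 0.1498. Chosen after seeing the data, 24 bp reads alone gave 0.1243 for Stat5a from 13 h to 2 rounds. Also chosen then, regions over 5 kb from a region in at least 2 lists, heaped ones kept, gave 1.582 for Stat5b over IgG at 13 h. The distinct share of Stat5a reads was 70.33% with 25 bp reads alone and 47.49% without heaped regions. The upper 50% of each list by reads left 2146 regions. The cause of these moves was not tested.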
